A study of Rattus norvegicus with 34 samples.

Results

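Heart was compared with skeletal muscle in 4 of the 34 TaqMan cards of the series, namely card A and card B of each tissue. The cards were chosen by their labels. Both tissues came from Sprague-Dawley rats 4 weeks old, for which the labels name no treatment, and their total RNA was isolated by TRIzol and not preamplified. Each tissue has 1 library per card, and the number and sex of the animals behind a library are not given, so no difference below has a replicate check or a test. In whole tissue, fewer cells of a type and less RNA per cell cannot be told apart.

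Striated muscle is known for a small set of very abundant miRNAs that heart and skeletal muscle largely share, among them miR-1 and the miR-133 family, which act in the growth and maturation of muscle cells. Others are known to differ between these tissues. miR-206 is a miRNA of skeletal muscle, and miR-208a is encoded within a cardiac myosin gene. The deposited values are numbered by position from 1 to 384 on each card, and the array definition that pairs positions with miRNAs was not used here. Positions are therefore given by number, without a miRNA name or sequence, and the labels of heart and skeletal muscle could not be checked against named markers.

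The measurement is CP, the number of PCR cycles needed to reach the detection threshold. A low CP stands for abundant template, and 1 cycle is a factor of 2 at perfect doubling. A position was detected when its CP was at most 35, and wells without amplification are listed at 50. On card A, 222 of 384 positions were detected in heart (57.8%, 95% Wilson confidence interval 52.8% to 62.7%) and 216 in skeletal muscle (56.2%, 51.3% to 61.1%). On card B, 192 positions were detected in heart (50%, 45% to 55%) and 133 in skeletal muscle (34.6%, 30% to 39.5%). These intervals cover counting error only and treat the wells of a card as independent. Many wells of card B repeat an assay, as described below, so its intervals are too narrow. Among the positions detected in both tissues, the median CP was later in skeletal muscle than in heart, at 29.9 against 28.7 on card A and 32.2 against 30.3 on card B. This median was subtracted from each column, and the gap in cycles that remained at a position is called the scaled difference. The tissue with the lower scaled CP is called higher. The words earlier and later refer to CP as deposited, before scaling.

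Some wells repeat one assay and were left out of the scaling. On card A the mean CP of positions 11, 12, 35, and 36 was 18.4 ± 0.061 (SD, n = 4 wells) in heart and 18.8 ± 0.168 in skeletal muscle. On card B it was 18.6 ± 0.793 in heart and 17.4 ± 0.281 in skeletal muscle, so the order of the means turned between the cards. The single wells overlapped on card B, from 17.6 to 19.6 in heart and from 17.1 to 17.7 in skeletal muscle. Positions 9, 10, 33, and 34 of card B also repeated each other, with a CP of 22.8 ± 0.216 (SD, n = 4 wells) in heart and 27.6 ± 0.228 in skeletal muscle. The latest of these wells in heart was at 23.0 and the earliest in skeletal muscle at 27.3, so the wells did not overlap. They are repeats within 1 library of each tissue and do not show the spread between animals. Heart was earlier by 4.75 cycles, and higher by 2.84 cycles after scaling. Kidney, lung, liver, spleen, and small intestine, the other 5 tissues with short PCR runs and positions that agree on both cards, had mean CP values from 23.8 (lung) to 28.3 (liver) in these wells.

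Card B also held pairs of wells. Positions 97 to 240 and the positions 144 later had almost equal CP values, with a median gap of 0.329 cycles over 96 pairs detected in both wells of a tissue, heart and skeletal muscle pooled. Between positions 1 to 96 and the positions 144 later the gap was 3.02 cycles (47 pairs). Of 330 offsets searched on card B, 144 gave the smallest median gap over the card (0.547 cycles) and 240 the next (1.77 cycles). On card A the smallest gap was 1.95 cycles. The pairing was thus read from the values and not from an array definition, and a pair is treated here as a single assay measured in 2 wells of a library.
The pairs give the error of the PCR step within a library, without the spread between animals. The SD of a single well was 0.372 cycles in heart (59 pairs detected in both wells) and 0.504 cycles in skeletal muscle (37 pairs), and from 0.457 to 0.587 cycles in the other 5 tissues. Late wells were less precise. In skeletal muscle the SD was 0.228 cycles for pairs with a mean CP of at most 28 (7 pairs) and 0.650 cycles above 32 (19 pairs), and in heart it was 0.233 (10 pairs) and 0.425 cycles (23 pairs). Among pairs detected in both wells, the largest gap was 1.32 cycles in heart and 1.83 cycles in skeletal muscle, so none of these was 2 cycles apart. Pairs with 1 detected well could be farther apart, as at positions 126 and 270 in skeletal muscle (33.8 and 38.96). Detection varied more, since only 1 well was detected in 17 pairs of heart and 13 pairs of skeletal muscle. Of 42 pairs in heart with a well at a CP of 32 or lower, 1 had an undetected partner (positions 98 and 242), and of 18 such pairs in skeletal muscle 0 had one.

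**Figure D1:**
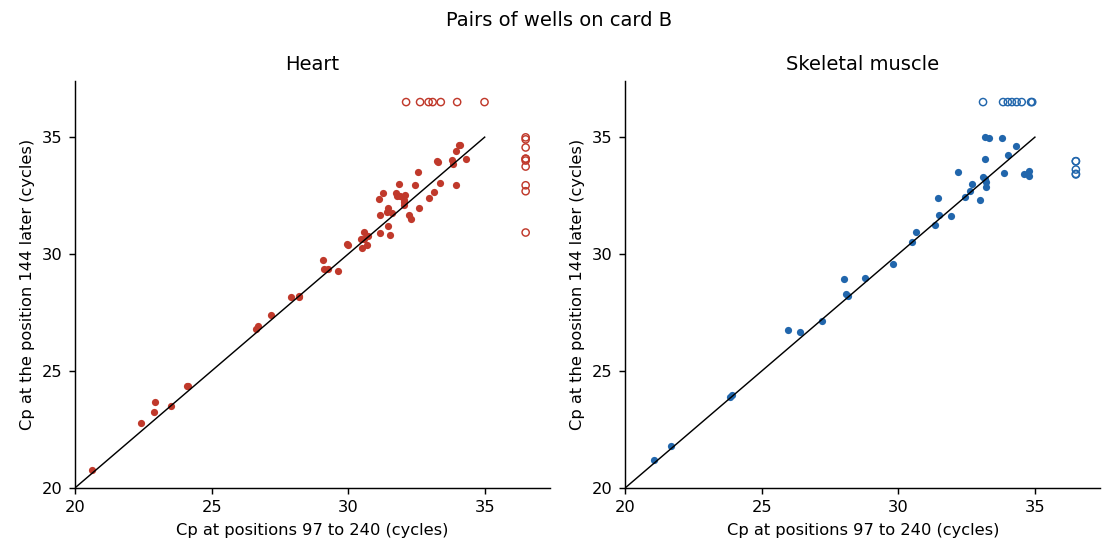
CP in cycles at positions 97 to 240 of card B (x axis) against the position 144 later (y axis), in heart and skeletal muscle. Filled points are pairs detected in both wells (59 in heart, 37 in skeletal muscle), open points have 1 undetected well placed past 35, and the line marks equal values. Filled points lie along the line, and open points gather at late CP.

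Heart and skeletal muscle shared their most abundant position, 69 of card A. Its CP was 17.4 in heart and 16.5 in skeletal muscle, against 23.8 in lung, 25.7 in small intestine, 29.9 in spleen, 30.7 in kidney, and 35 in liver. Position 70 had a CP of 19.9 in heart and 19.3 in skeletal muscle, and from 25.1 (lung) to 34.01 (liver) in the other 5 tissues. At position 8 the CP was 21.1 in heart and 19.6 in skeletal muscle, and at position 7 it was 22.4 and 19.5. The other 5 tissues lay from 25.97 (lung) to 34.7 (liver) at these positions. No other position of card A had both tissues ahead of each of the other 5 by 3 cycles or more. The leads were 7.72, 6.70, 6.51, and 5.39 cycles at positions 69, 8, 70, and 7, with each tissue scaled to the 151 positions detected in all 7.
Skeletal muscle exceeded heart at all 4 positions. The scaled difference was 4.17 cycles at position 7, 2.81 at position 8, 2.18 at position 69, and 1.80 at position 70. Before scaling skeletal muscle was still the earlier one, by 2.91, 1.55, 0.915, and 0.542 cycles.

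Other abundant positions were shared with the other tissues. At position 61 of card A the CP was 19.8 in heart and 22.2 in skeletal muscle, and lung was earlier than both at 17.9. At position 29 it was 20.7 in heart and 22.7 in skeletal muscle, and at position 41 it was 20.8 and 22.5. These 3 positions had a CP of at most 24.6 in all 7 tissues, and their scaled differences of 1.13, 0.708, and 0.451 cycles toward heart were small beside those above. On card B, apart from the repeated positions, the earliest assay in both tissues was the pair 222 and 366. Its CP was 20.6 and 20.8 in heart and 21.1 and 21.2 in skeletal muscle. After scaling, skeletal muscle was higher by 1.49 ± 0.093 cycles (± error from the gaps within the pair), whereas before scaling heart was the earlier one. The other 5 tissues had a CP between 22.6 and 24.6 in this pair. With all 7 scaled alike, heart and skeletal muscle both led each of the 5, by at least 1.42 cycles at position 222 and 1.14 cycles at position 366.

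The tissues ranked their positions alike to a degree. Across positions of a library pair, the Spearman correlation was 0.736 on card A (187 positions detected in both tissues) and 0.774 on card B (110 positions). The scaled difference had an SD of 2.18 cycles on card A and 2.15 cycles on card B, and 46% and 41.8% of the positions lay within 1 cycle. Its range was unequal on both sides. On card A it reached 3.64 cycles toward heart and 7.73 cycles toward skeletal muscle, and on card B 3.02 and 11.8 cycles. Positions detected in 1 tissue are outside this range and have only a lower bound, which was at most 5.18 cycles toward heart and 9.15 cycles toward skeletal muscle on card A, and 4.93 and 9.78 cycles on card B.

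**Figure D2:**
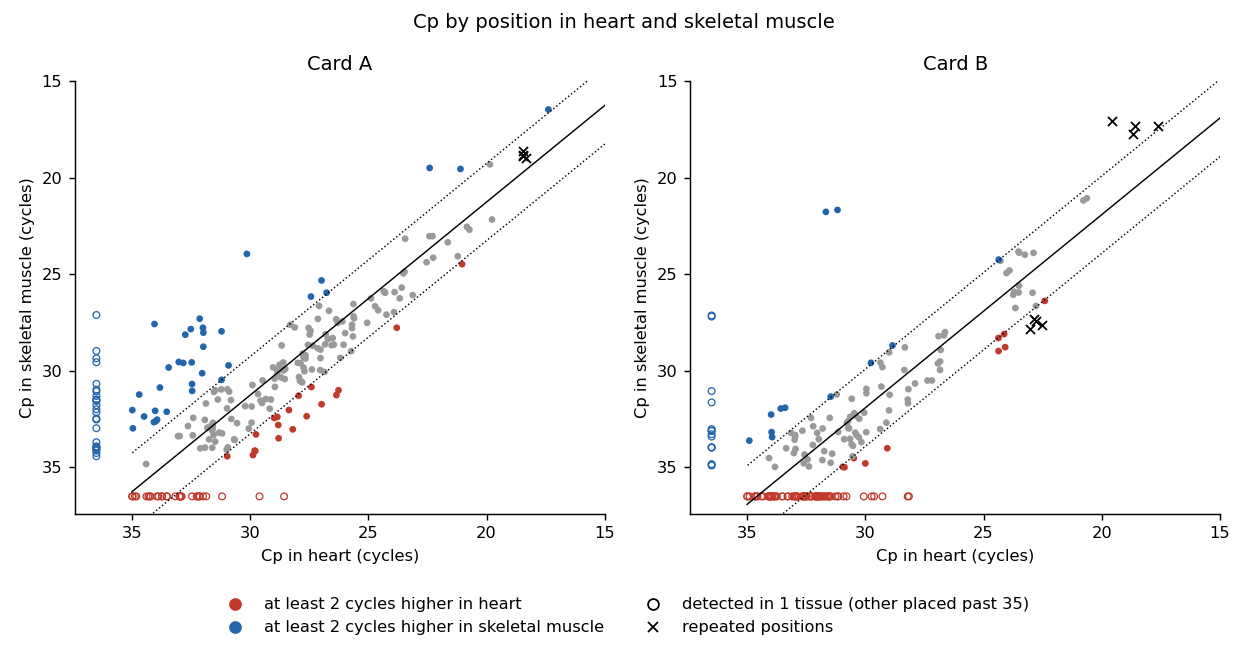
CP in cycles of each position in heart (x axis) and skeletal muscle (y axis), with both axes reversed so that abundant positions are at the upper right. The solid line is the difference of the medians and the dotted lines lie 2 cycles from it, open circles are positions detected in 1 tissue with the other placed past 35, and crosses are repeated positions. The 2 blue points far above the line on card B, with a CP of 21.7 and 21.8 in skeletal muscle, are positions 163 and 307.

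On card A, skeletal muscle was higher by at least 2 cycles at 34 of 187 positions (18.2%) and heart at 19 (10.2%). Among these 187, a difference of at least 4 cycles was found at 17 positions, all higher in skeletal muscle. Positions detected in 1 tissue passed 4 cycles on both sides. The bound was at least 5.18 cycles toward heart at position 344 and 9.15 cycles toward skeletal muscle at position 228. The split depended on the scale. Heart held 35.8% of the differing positions here, 43.6% with the mean in place of the median, 65.2% when the repeated positions set the scale, 77.5% without scaling, and 20.4% with the positions detected in all 7 tissues. The median difference over the card was 0.282 cycles here and 0.513, 1.15, 1.54, and -0.285 cycles in these alternatives.

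Position 353 had the widest difference on card A, with a CP of 27.6 in skeletal muscle and 34.04 in heart, or 7.73 cycles after scaling. It was undetected in kidney, liver, and spleen, and late in lung (33.2) and small intestine (32.6). At position 272 the CP was 23.9 in skeletal muscle and 30.1 in heart, a scaled difference of 7.45 cycles, and from 27.5 (lung) to 33.1 (liver) in the other 5 tissues. Skeletal muscle was the earliest of the 7 tissues at both positions.
The next were positions 222, 230, 74, 15, 71, and 208, with scaled differences from 6.09 down to 4.88 cycles. Their CP was between 27.3 and 29.8 in skeletal muscle and between 31.98 and 33.4 in heart. Kidney was earlier than skeletal muscle at position 15 (25.9 against 27.8) and at position 71 (27.1 against 28.02). In liver position 15 was detected at 33.8, and the other 5 of these positions did not amplify.

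Toward heart the 8 widest differences on card A were from 3.64 down to 3.11 cycles. At position 260 the CP was 26.4 in heart and 31.3 in skeletal muscle, while kidney had 29.3, lung and spleen 31.98 and 31.96, small intestine 32.2, and liver no amplification. At position 55 it was 29.8 in heart and 34.1 in skeletal muscle, with kidney next at 30.1. Heart was the earliest of the 7 tissues at these 2 positions, although with all 7 scaled alike liver was higher than heart at position 55.
At the remaining 6 another tissue was earlier than heart. Position 362 had a CP of 28.2 in heart, 33.03 in skeletal muscle, and 26.1 in lung. At positions 44, 66, 349, and 100 the CP of heart was from 26.3 to 28.8, that of skeletal muscle from 31.0 to 33.5, and that of lung from 23.8 to 28.3. Position 374 was at 29.9 in heart and 34.4 in skeletal muscle, far later than in small intestine (24.6), lung (25.4), and liver (25.5).

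The place of each tissue among the 7 was counted with all of them scaled alike and undetected wells set to 35. Skeletal muscle was the highest of the 7 at 26 of the 34 positions of card A at which it exceeded heart, and at 50 of all 187 compared. Heart was the highest at 3 of the 19 positions at which it exceeded skeletal muscle, and at 20 of all 187. At 8 of these 19 positions skeletal muscle was the lowest of the 7, and it was the lowest at 21 of all 187. Heart was the lowest at 8 of the 34 positions higher in skeletal muscle, and at 24 of all 187. On card B skeletal muscle was the highest at 9 of its 12 positions (31 of all 110) and heart at 4 of its 10 (18 of all 110). Skeletal muscle was the lowest at 6 of these 10 (21 of all 110), and heart at 2 of the 12 (11 of all 110). The counts use the values that chose the positions and were not tested.

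**Figure D3:**
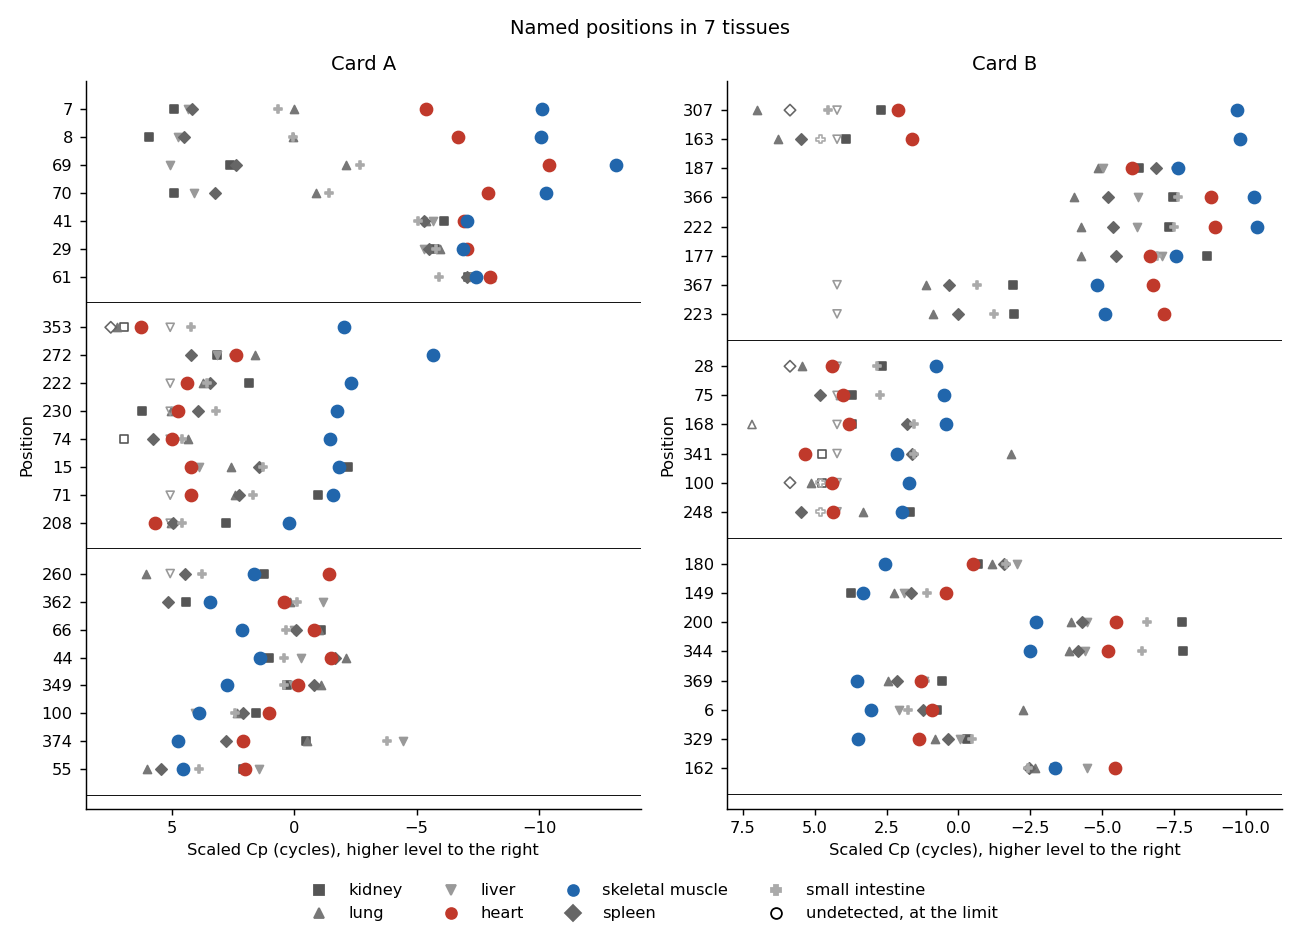
Scaled CP in cycles (x axis, reversed so that a higher level is to the right) in heart (red), skeletal muscle (blue), and 5 other tissues (gray), each scaled to the positions detected in all 7. Each line is a position, with the most abundant ones and those led by both tissues at the top, then those highest in skeletal muscle against heart, and those highest in heart at the bottom, and open markers are undetected wells placed at the limit. At positions 7, 8, 69, and 70 of card A heart and skeletal muscle both stand to the right of the other 5 tissues.

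On card B, heart was higher by at least 2 cycles at 10 of 110 positions (9.09%) and skeletal muscle at 12 (10.9%). With each pair of wells averaged there were 34 pairs detected in all 4 wells and 34 single positions, and heart was higher at 4 of these 68 (5.88%) and skeletal muscle at 6 (8.82%). The split depended on the scale here too. Heart held 45.5% of the differing positions, the same 45.5% with the positions detected in all 7 tissues, 61.9% with the mean, 59.1% with blocks of 48 positions scaled apart, 96.4% without scaling, and 97.5% when the repeated positions set the scale. The median difference over the card moved from -0.02 to 1.89 cycles without scaling and to 3.15 cycles with the repeated positions.
The widest difference of all was in the pair 163 and 307. Its CP was 21.7 and 21.8 in skeletal muscle and 31.2 and 31.7 in heart, a scaled difference of 11.6 ± 0.251 cycles. In the other 5 tissues the wells were between 32.9 and 39.8, so that heart was second to skeletal muscle in both wells. Without this pair the SD of the scaled difference on card B was 1.51 cycles.
At the pair 173 and 317 the CP was 27.2 and 27.1 in skeletal muscle, and heart was undetected at 35.8 and 35.1. Skeletal muscle was therefore higher by at least 9.72 and 9.78 cycles. Kidney came next, at 29.4 and 29.2, then lung at 33.01 and 32.4, and liver, spleen, and small intestine were undetected in both wells.
Among positions detected in both tissues, the other differences of card B toward skeletal muscle were smaller and at late CP. Positions 28, 75, 168, 341, 100, and 248 had scaled differences from 3.63 down to 2.42 cycles, and heart was between 33.4 and 34.9 at all of them. Without scaling, skeletal muscle was earlier at these 6 positions by 1.72 down to 0.512 cycles, and none was 2 cycles apart. When the repeated positions set the scale, the differences at positions 28, 75, 168, and 341 were -0.46, -0.37, -0.23, and -0.03 cycles, and positions 100 and 248 turned to heart.

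Toward heart the pair 200 and 344 differed most among the pairs detected in all 4 wells, with a CP of 24.1 and 24.4 in heart and 28.8 and 28.98 in skeletal muscle, or 2.74 ± 0.174 cycles. The other 5 tissues were between 22.4 (kidney) and 26.4 (liver), and skeletal muscle was the latest of the 7. The pair 162 and 306 had 24.1 and 24.4 in heart and 28.1 and 28.3 in skeletal muscle, or 2.04 ± 0.158 cycles. At position 162 heart was the earliest of the 7 tissues.
At the pair 223 and 367 both tissues were early, with a CP of 22.4 and 22.8 in heart and 26.4 and 26.6 in skeletal muscle, while the other 5 were at 28.3 or later and liver did not amplify. Position 223 was the one position of card B at which both led the other 5 by 3 cycles (3.15 cycles), and its partner 367 fell short of that with a lead of 2.91 cycles. Heart was higher here by 2.00 ± 0.228 cycles, the opposite order to positions 7, 8, 69, and 70 of card A.
In several pairs 1 well differed by 2 cycles or more, and the other fell short of that or was not detected in both tissues. Heart was higher by 2.20 cycles at position 369 and by 0.103 cycles at its partner 225, and by 2.88 cycles at position 149 and 1.05 cycles at its partner 293. Position 100 was 2.70 cycles higher in skeletal muscle and its partner 244 by 0.817 cycles. The partner of position 248, position 104, went the other way, as it was detected in heart (33.3) and did not amplify in skeletal muscle. The partner of position 341, position 197, did not amplify in either tissue. Position 312, the partner of position 168, went the same way as position 168. It was at 31.6 in skeletal muscle without amplification in heart, and therefore at least 5.28 cycles higher in skeletal muscle. Position 180 was 3.02 cycles higher in heart, and its partner 324 went the same way. At position 324 heart was at 29.7 and skeletal muscle just undetected at 35.4, so heart was at least 3.35 cycles higher.

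**Figure D4:**
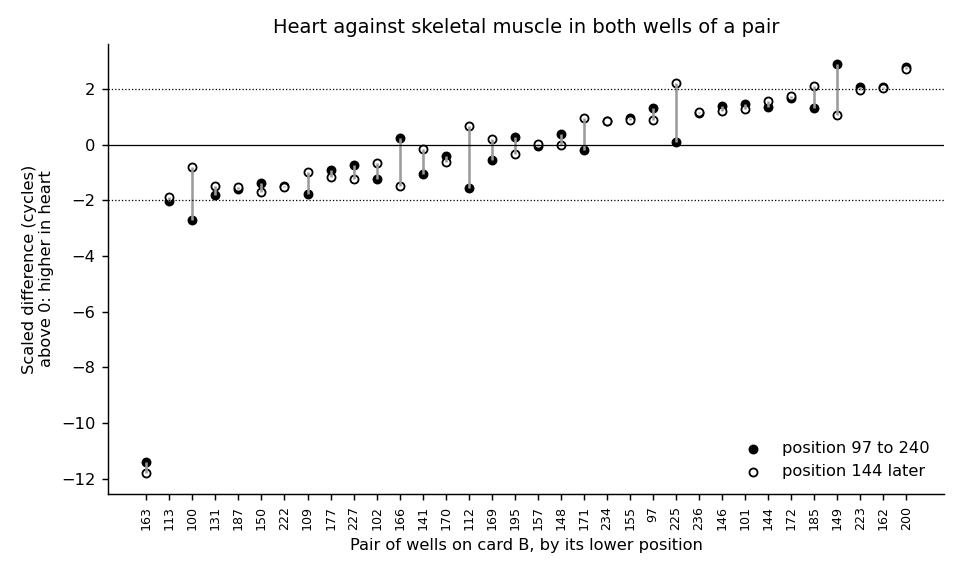
Scaled difference between heart and skeletal muscle in cycles (y axis, above 0 higher in heart) in the 34 pairs of wells of card B detected in all 4 wells, ordered by their mean along the x axis. Joined points are the wells of a pair, filled for positions 97 to 240 and open for the position 144 later, and dotted lines mark 2 cycles. The pair at 163 stands alone at 11.6 cycles toward skeletal muscle.

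The wells of these 34 pairs had the same sign of difference in 28. The median gap between the differences of a pair was 0.335 cycles and the largest 2.21 cycles. The averaged difference had an SD of 2.42 cycles over the pairs, and of 1.35 cycles without the pair 163 and 307, against an error from wells of 0.428 cycles for the mean of a pair. The spread over assays was thus wider than that between wells, and the share owed to single animals was not measured.

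A further set of positions was detected in 1 tissue. On card A there were 31 in heart only (12.8% of the 243 detected in either) and 25 in skeletal muscle only (10.3%). The order turned to 21 and 36 when the limit in heart was lowered by the difference of the medians (1.26 cycles). The other tissue did not amplify at all at 19 and 18 of the 31 and 25. A CP of at most 32 was reached by 5 of those in heart and 13 of those in skeletal muscle.
In skeletal muscle the earliest was position 228, with a CP of 27.1 and no amplification in heart, kidney, or liver, and therefore at least 9.15 cycles higher than in heart. Position 109 was at 28.97 in skeletal muscle and 28.5 in kidney and did not amplify in heart. Position 174 was at 29.6 in skeletal muscle and 39.6 in heart. Position 130 was at 30.7 in skeletal muscle, without amplification in heart, and far earlier in small intestine (19.9). At position 1 heart did not amplify and skeletal muscle was at 29.4, and all 16 other libraries of card A, skeletal muscle included, were between 20.4 and 31.2. A failed well and an absent RNA cannot be told apart there.
In heart the earliest was position 344, with a CP of 28.6 and no amplification in skeletal muscle, kidney, or liver, and therefore at least 5.18 cycles higher than in skeletal muscle. Position 125 was at 29.6 in heart, and of the other 6 tissues it was detected in lung (34.01) and spleen (34.04) alone. Positions 113 and 296 were at 31.2 and 31.9 in heart and did not amplify in skeletal muscle, and lung was earlier at both (30.2 and 24.3). Position 300 was at 31.99 in heart and just past the limit in skeletal muscle, at 35.8.

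On card B there were 74 positions detected in heart only (37.2% of 199) and 15 in skeletal muscle only (7.54%). A CP of at most 32 was reached by 24 of those in heart and 4 of those in skeletal muscle, the reverse of card A. The median of skeletal muscle was later by 1.91 cycles on this card. With the limit in heart lowered by that amount the numbers of positions were 47 and 25. Both wells of heart and neither well of skeletal muscle were detected in 19 of the 144 pairs (13.2%), and the reverse was found in 2 (1.39%).
The pair 217 and 361 had a CP of 28.2 in both wells of heart and of 35.4 and 36.98 in skeletal muscle, with the other 5 tissues between 31.1 and 33.5. Heart was the earliest of the 7 and skeletal muscle the latest. The pair 105 and 249 was at 29.6 and 29.3 in heart, did not amplify in skeletal muscle, and was between 28.6 and 33.98 in the other 5 tissues. The pairs detected in skeletal muscle alone were 173 and 317, described above, and 154 and 298, at 33.1 and 33.3 and without amplification in heart.

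The differences were not spread evenly along card A. In blocks of 48 consecutive positions the median scaled difference went from -1.25 cycles (positions 193 to 240, 20 positions) to 0.756 cycles (positions 49 to 96, 34 positions). Positions 193 to 288 held 13 of the 34 positions higher in skeletal muscle among 36 compared, including 208, 222, 230, and 272. With each block scaled apart, 36 positions were higher in skeletal muscle and 20 in heart. On card B the median was -1.25 cycles in positions 97 to 144 and -0.677 cycles in their partners, positions 241 to 288. The part of the card layout in these medians was not tested.

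Each pair of the 7 tissues was compared in the same way. On card A the SD of the scaled difference was 2.18 cycles between heart and skeletal muscle, and 3 of the 20 other pairs had a smaller one. It was from 2.42 (lung) to 2.89 cycles (liver) between heart and the other 5 tissues, and from 3.04 (kidney) to 3.32 cycles (liver) between skeletal muscle and these. By the SD each was nearer to the other than to any of the 5. By the median absolute difference, heart was nearer to lung (0.756 cycles) and kidney (1.01 cycles) than to skeletal muscle (1.08 cycles). Liver, spleen, and small intestine were farther from heart by this measure (from 1.19 to 1.52 cycles). By rank the order was different for positions detected in both tissues of a pair, as 9 pairs had a Spearman correlation above 0.736, among them heart with lung (0.794). The rank result depended on the positions used. When only the 151 positions shared by all 7 tissues were ranked, heart and skeletal muscle had 0.846 and 0 pairs exceeded this. With a detection limit of 32 they had 0.788 and 1 pair was above, heart with lung (0.810).
On card B, 16 of the 20 pairs had a smaller SD than the 2.15 cycles between heart and skeletal muscle, and kidney was nearest to heart (1.43 cycles). Over the 90 positions of card B detected in all 7 tissues, which leave out the pair 163 and 307, it was 1.35 cycles and 3 pairs had a smaller one. With a detection limit of 32 on card B, all 20 other pairs had a smaller SD and a higher Spearman correlation than heart and skeletal muscle. Both wells 163 and 307 were among the 51 positions at this limit, and also among those behind the SD of 2.15 cycles. Without these wells that SD was 1.51 cycles, and the pairs of tissues were not ranked again. Over the 151 positions of card A detected in all 7 tissues, the SD between heart and skeletal muscle was 1.76 cycles and 0 pairs had a smaller one. Pairs share libraries, and these values are a description without a test.

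**Figure D5:**
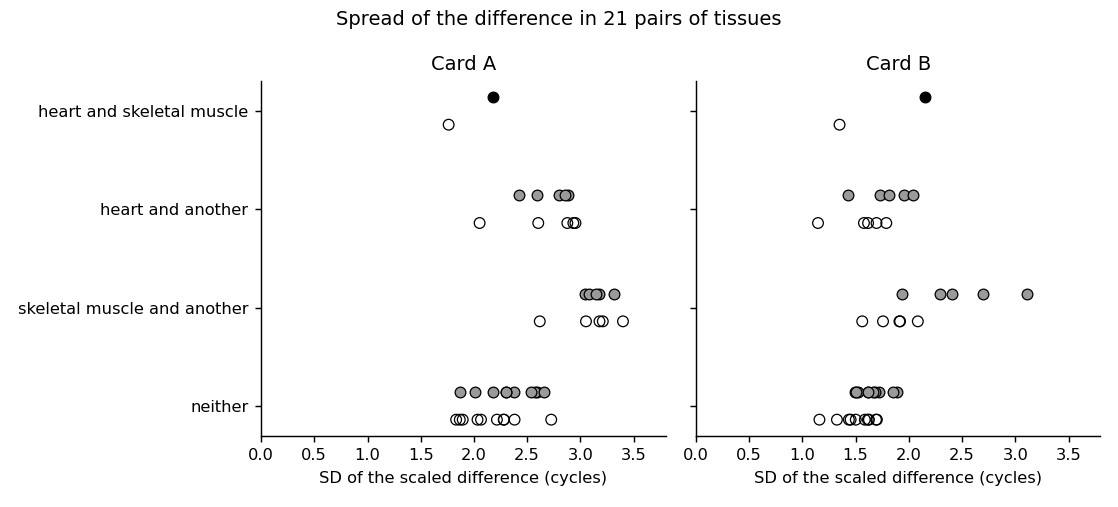
SD of the scaled difference in cycles (x axis) for the 21 pairs of 7 tissues, in groups by whether a pair holds heart, skeletal muscle, both, or neither. Filled points use the positions detected in both tissues of a pair and open points those detected in all 7. On card A heart and skeletal muscle lie at 2.18 and 1.76 cycles, left of each pair of either with another tissue, and on card B at 2.15 and 1.35 cycles.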

How the data were processed

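miRNAs were measured with TaqMan Rodent array cards A and B. The deposited values are CP cycles on no other scale, which the authors read with the SDS software and RQ Manager before normalization to U6. The CP limit of 35 is that of the paper. Heart and skeletal muscle were compared on each card after subtracting the column median over positions detected in both. Positions 11, 12, 35, and 36, and on card B also 9, 10, 33, and 34, were left out. On each card the rule for naming positions took the 8 widest differences per direction, the 5 lowest CP values per tissue, and the 5 lowest among positions detected in 1 tissue. Positions with both tissues 3 cycles ahead and pairs of wells were chosen after their values were seen. Tissues, rules, and lists were chosen with earlier results of these data known. Planned lists of named miRNAs and cell type markers were not used, since positions carry no names here. The error of a pair was computed from the gaps between its wells. The comparison and the search for pairs were tested on simulated data. Limits, scalings, and sizes of difference were varied. Python (3.11.15), pandas (2.3.3), numpy (2.4.6), matplotlib (3.10.9), and scipy (1.17.1) were used.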

Additional observations from a re-analysis of the deposited data

How the results depend on the processing

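No paired analysis was possible because heart and skeletal muscle have 1 library each per card, and leaving out a replicate was not possible either. Counts of differing positions moved with the scale. Heart exceeded skeletal muscle on card A at 19 positions, and at 62 without scaling, 43 with the repeated positions, and 11 with the positions detected in all 7 tissues. Skeletal muscle exceeded heart there at 34, and at 18 without scaling. On card B heart had 10, and 53 without scaling and 78 with the repeated positions, and skeletal muscle had 12, and 2 in either case. With a detection limit of 32, heart and skeletal muscle had 4 and 15 on card A and 6 and 4 on card B, and with a limit of 40 they had 19 and 24 on card B. Counting from 1 cycle gave 49 and 52 on card A and 29 and 35 on card B, and from 3 cycles 9 and 22, and 1 and 6. With undetected wells set to 35, skeletal muscle had 58 on card A, and heart and skeletal muscle had 18 and 27 on card B. Averaging pairs of wells, an alternative chosen after seeing the data, gave 4 and 6. At the limit of 32, card B had 118 detected positions in heart and 65 in skeletal muscle. On card A the limit in heart lowered by the difference of medians turned the order of positions detected in 1 tissue, from 31 in heart and 25 in skeletal muscle to 21 and 36. Positions detected in heart only on card B were 47 with the limit in heart lowered and 19 as pairs of wells, both added after seeing the data. Those in skeletal muscle only were 25 and 2, and 6 and 23 with limits of 32 and 40. The SD on card A was 1.73 cycles with the limit of 32 and 1.24 over positions with a CP of at most 30 in both tissues. On card B it was 2.65 and 1.49, and 2.63 with the limit of 40. On card A 0 other pairs of tissues had a smaller SD over positions detected in all 7, and 1 with the limit of 32. A higher Spearman correlation was found there in 9 pairs over positions detected in both tissues, 0 over those detected in all 7, and 1 with the limit of 32. On card B 3 pairs had a smaller SD over positions detected in all 7. By Spearman correlation 10 pairs were higher there over positions detected in both tissues and 5 over those detected in all 7. With the limit of 32 all 20 had a smaller SD on card B and all 20 a higher Spearman correlation. The direction of 36 positions, picked in the same data for a scaled difference of at least 2 cycles, was followed over 5 other scalings. Except for the scaling in blocks, each of these moved all positions of a card by the same amount. On card A this shift was at most 1.26 cycles and the narrowest difference followed was 2.18 cycles. Such a shift could therefore turn no direction on card A. Of the 36 positions, 34 kept their direction in all 5 scalings. Position 341 of card B was at only -0.03 cycles with the repeated positions. The exceptions were positions 100 and 248 of card B, at 0.468 and 0.746 cycles toward heart with the repeated positions. The cause was not tested. Where only 1 well of a pair was detected, the earliest such CP was 30.9 in heart and 33.1 in skeletal muscle.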
